A study of Mus musculus with 32 samples.

Results

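The chemokine genes of a fixed list are described here across all libraries of a mouse microglial cell line. Its 10 members were chosen by name, as Ccl2, Ccl3, Ccl4, Ccl5, Ccl7, Ccl9, Ccl12, Cxcl2, Cxcl10 and Cxcl16, and all were found among the 45706 genes of the count table. No measured value entered the choice of the names, although earlier results of these data were known when the list was made.

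The study asked what the targets of 3 miRNAs do in BV-2, a continuously growing mouse microglial line whose genotype the labels give as WT (wild type). Cells were transfected with a scramble control or with a mimic of miR-7a-5p, of miR-29a-3p or of miR-146a-5p, and received vehicle or 10 ng/ml lipopolysaccharide (LPS), a bacterial cell wall component, for 24 h. This gave 8 groups of 4 libraries, 32 in all, made from total RNA after ribosomal RNA depletion. The labels place LPS before the transfection, while the methods of the study describe the transfection first. All 8 groups are therefore one cell line with a transfected small RNA, and no untransfected cells are among them. The level of the transfected miRNA itself was not analysed here. The study describes its BV-2 replicates as separate experiments, while the labels give only a replicate number. All replicates come from 1 cell line, so p-values measure the spread between runs of that line. In bulk RNA, fewer cells that make a transcript and less transcript per cell cannot be told apart.

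Chemokines are small secreted proteins that guide leukocytes along a concentration gradient by binding G protein-coupled receptors on the moving cell. Microglia and macrophages release them when Toll-like receptors sense bacterial products, through NF-kB, AP-1 and interferon-driven factors of the STAT and IRF families. A miRNA represses a transcript mainly where bases 2 to 8 of its mature strand, the seed, pair with the 3′ untranslated region (3′ UTR), and a mimic raises that miRNA in the cell.

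The mature sequences of the 3 mimicked miRNAs (RefSeq, GRCm38) are shown because the 6 comparisons with scramble turn on them. Capitals mark the seed, and the 3 seeds differ.
mmu-miR-7a-5p: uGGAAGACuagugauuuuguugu
mmu-miR-29a-3p: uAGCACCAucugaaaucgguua
mmu-miR-146a-5p: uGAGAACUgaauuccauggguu

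The 3′ UTRs of the 10 chemokine transcripts (GENCODE M21, GRCm38) held 3 matches to these seeds. Ccl9 had a match to the miR-7a seed at base 46 and a match to the miR-146a seed at base 1183 of its 3′ UTR of 2465 bases. Cxcl2 had a match to the miR-7a seed at base 1371 of 1494. The miR-29a match TGGTGCT was in none of the 10. For comparison, 12.7% of the 21042 genes with an annotated 3′ UTR held the miR-7a match GTCTTCC, 11.9% held the miR-146a match AGTTCTC and 13.8% held the miR-29a match. A match is a run of letters and not a shown site. The 3 stretches are printed with the seed match in capitals, since they are the only seed matches among the members.
Ccl9 with the miR-7a match: tttctttgGTCTTCCccagtg
Ccl9 with the miR-146a match: tctttggaAGTTCTCcctgtt
Cxcl2 with the miR-7a match: cattttatGTCTTCCtcgtaa

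The genes lie in 4 places of the GRCm38 genome. Ccl2 (chr11:82035571-82037453), Ccl7 (chr11:82045712-82047525) and Ccl12 (chr11:82101845-82103400) are neighbours on the plus strand of chromosome 11. Ccl5 (chr11:83525778-83530518), Ccl9 (chr11:83572919-83578636) and Ccl3 (chr11:83647844-83649355) follow on the minus strand, and Ccl4 (chr11:83662584-83664683) lies beside Ccl3 on the plus strand. Cxcl16 (chr11:70453983-70459984, minus) lies apart from them on the same chromosome. Cxcl2 (chr5:90903871-90905938, plus) and Cxcl10 (chr5:92346638-92348889, minus) are on chromosome 5. Exons of Cxcl16 share 552 bases with the opposite-strand gene Zmynd15, and those of Cxcl10 share 133 bases with Art3. Whether reads were counted by strand is not given in the sources used here, so reads of these pairs cannot be told apart in the shared bases.

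Values are CPM (counts per 1000000 counts) on effective library totals, that is, totals scaled by the trimmed mean of M-values (TMM). Totals ranged from 1.09 to 20.4 M estimated counts and effective totals from 0.66 to 18.4 M, so that 1 count was worth between 0.0545 and 1.52 CPM. The deposited table had lost its decimal marks, which were restored from the size of each value. Only 4 of the 320 member values had lost decimals, and the reading was least certain for Ccl5, where the lowest probability was 0.907 and depended on how the marks were restored (given with its results). Replicates 2, 3 and 4 of miR-7a under vehicle stood apart, with 25.9% to 34.3% of counts in structural RNA genes against 2.50% to 15.3% in the other 29 libraries. Leaving them out, a choice made after seeing the data, leaves 1 vehicle library for miR-7a, whose spread is then assumed to be that of the 4 libraries it is compared with. A microglia marker list of 12 genes summed to between 2921 and 7194 CPM over the 32 libraries, with Cd68 and Csf1r among its leading genes, while the homeostatic markers Tmem119 and Cx3cr1 reached 0 in single libraries. Astrocyte, neuron, endothelial and lymphocyte or neutrophil lists summed to at most 1.60, 3.24, 4.88 and 0.959 CPM, and an oligodendrocyte list to between 2.87 and 21.2 CPM. The neuron sum holds 4 of its 5 genes, without Tubb3, which had 1 uncertain value and reached 3.58 CPM in a single library.

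Under vehicle, Ccl3 and Ccl4 were the leading chemokine transcripts per length of exon, and under LPS Ccl5 joined them. In scramble cells under vehicle, the level of Ccl3 was 236 ± 207 CPM per kb (SD, n = 4). Ccl4 was at 41.4 ± 24.2 CPM per kb, and its range overlapped that of Ccl3. Both stood above all 4 libraries of Ccl9, which was next at 2.21 ± 0.53 CPM per kb and overlapped Ccl2 and Ccl5. In scramble cells under LPS, Ccl5 led with 292 ± 213 CPM per kb and overlapped Ccl3 at 193 ± 152 CPM per kb. Ccl4 followed at 30.3 ± 10.0, Ccl9 at 5.95 ± 0.70 and Ccl2 at 4.01 ± 2.57 CPM per kb. The remaining 5 members, Cxcl16, Ccl12, Ccl7, Cxcl10 and Cxcl2, had mean levels of at most 0.955 CPM per kb there, each overlapping the next. By group means Ccl5 led the order in all 4 LPS groups and Ccl3 in all 4 vehicle groups. The range of Ccl5 overlapped that of Ccl3 in each of the 4 LPS groups.

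**Figure D1:**
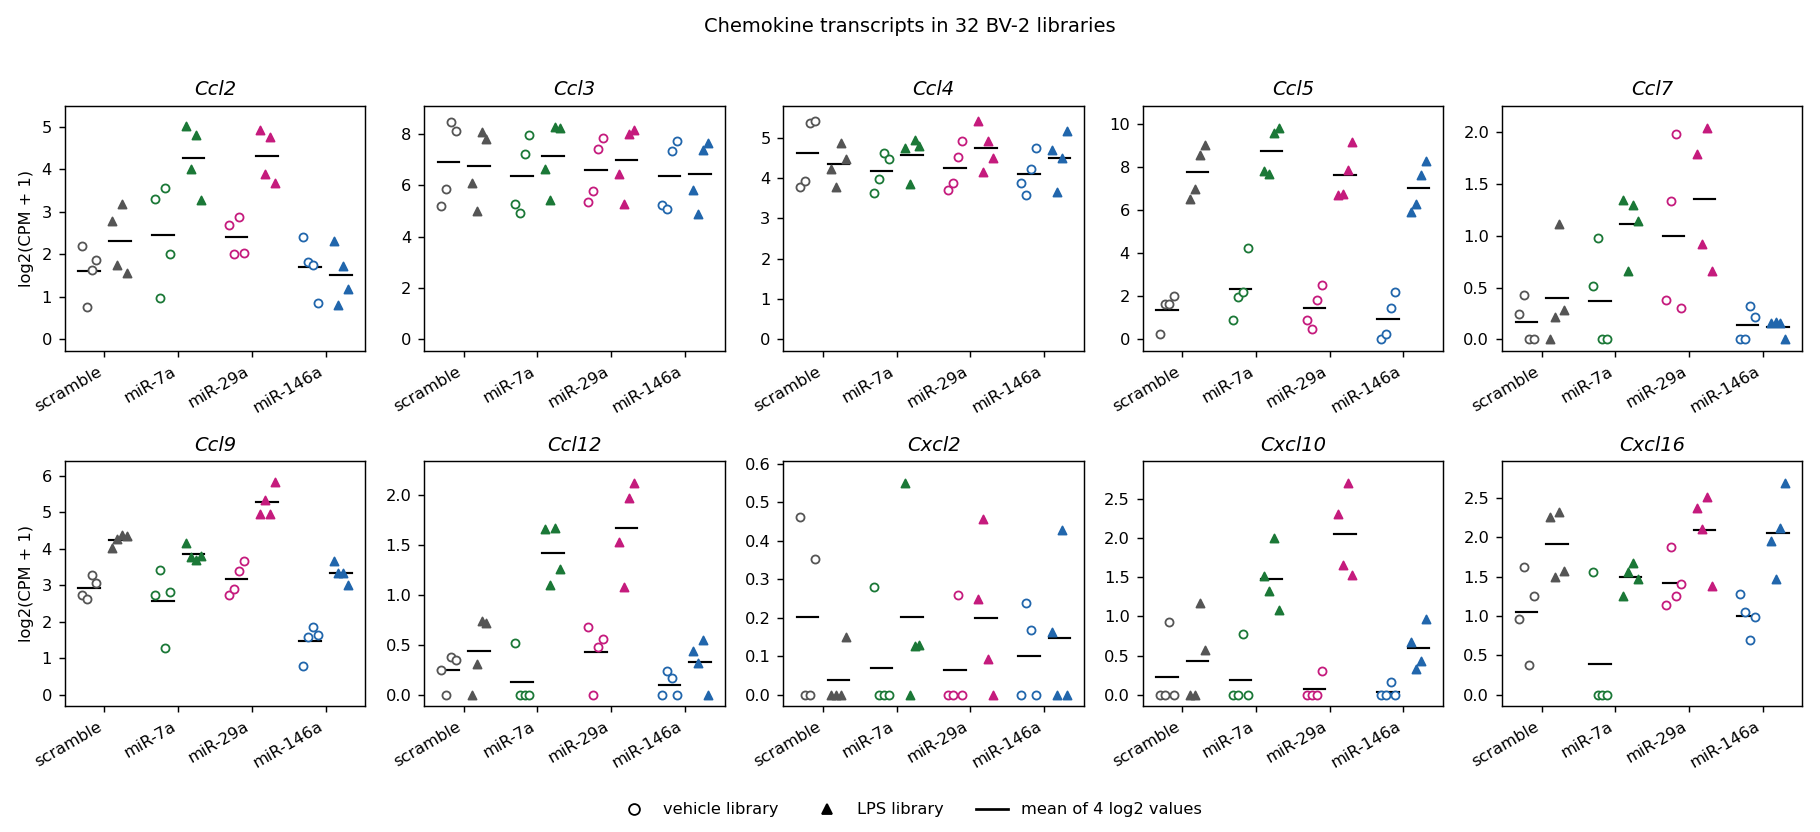
Level of each chemokine transcript as log2(CPM + 1), with one panel per gene, open circles for vehicle libraries, filled triangles for LPS libraries and a bar at the mean of 4 log2 values; the vertical scale differs between panels. Ccl5 and Ccl9 under LPS lie above vehicle in all 4 transfections, and Ccl2, Ccl12 and Cxcl10 are highest under LPS with miR-7a and miR-29a.

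The first question was which chemokines differed between LPS and vehicle within each transfection. In scramble cells, 2 of the 6 members tested were called, Ccl5 and Ccl9, both higher, where 18.1% of all 11825 genes tested were called. In miR-7a cells 1 of 5 was called, Ccl5, against a background of 6.46%. In miR-29a cells 4 of 7 were called, Ccl2, Ccl5, Ccl9 and Cxcl10, all higher, against 26.4%. In miR-146a cells 2 of 6 were called, Ccl5 and Ccl9, both higher, against 4.59%. Called means an adjusted p below 0.05 in limma with voom weights, after Benjamini-Hochberg adjustment over all genes tested. Replicate numbers paired the libraries in scramble and miR-29a cells. With the replicate number as a block the same members were called there, against 25.5% and 37.7% of all genes. The members tested were not the same in each transfection, and Cxcl10 entered only in miR-29a cells, through its LPS libraries. Ccl5 also entered through its LPS libraries, since its counts under vehicle were 0 to 41 and it had too few for any test between vehicle groups. Over the 5 members tested in all 4 transfections (Ccl2, Ccl3, Ccl4, Ccl5 and Ccl9), 2, 1, 3 and 2 were called in scramble, miR-7a, miR-29a and miR-146a cells. Members that entered through their LPS libraries had to be higher under LPS, so the calls are also given without Ccl5 and Cxcl10. These were Ccl9 in scramble, Ccl2 and Ccl9 in miR-29a and Ccl9 in miR-146a cells, with none in miR-7a cells.

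Ccl5, also known as RANTES, attracts T cells and monocytes through receptors such as Ccr1 and Ccr3, and it differed most between LPS and vehicle. In scramble cells it was at 0.189, 2.08, 2.11 and 3.04 CPM under vehicle and at 93.1, 128, 377 and 521 CPM under LPS (replicates 1 to 4). In miR-7a cells it was at 0.861, 2.93, 3.58 and 18.2 CPM under vehicle and at 231, 208, 781 and 922 CPM under LPS. All LPS libraries of both transfections lay far above their vehicle libraries. In miR-29a cells it was at 0.899, 0.381, 2.56 and 4.86 CPM under vehicle and at 103, 109, 234 and 589 CPM under LPS. In miR-146a cells it was at 0, 0.180, 1.73 and 3.60 CPM under vehicle and at 59.4, 77.0, 197 and 318 CPM under LPS. The groups again did not overlap.

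The log2 fold change of Ccl5 was 7.26 ± 1.05 (SE, n = 4 against 4) in scramble cells, with an adjusted p of 0.000874 in limma. It was 7.51 ± 1.31 in miR-7a cells (adjusted p = 0.00562 in limma), 6.56 ± 1.11 in miR-29a cells (0.00143) and 6.91 ± 1.63 in miR-146a cells (0.0295). Mean CPM was 151, 83.8, 119 and 118 times higher under LPS than under vehicle in the 4 transfections, in that order. Since Ccl5 was tested only through its LPS libraries, the sign of these estimates was set by its entry. Leaving out any 1 of the 4 vehicle libraries of miR-146a ended the Ccl5 call in those cells, with adjusted p of 0.063, 0.0674, 0.1163 and 0.1211 without replicates 1, 2, 3 and 4. Against the 1 vehicle library of miR-7a that did not stand apart, the log2 fold change of Ccl5 was 8.79 with an adjusted p of 0.206, a test of 4 libraries against 1.

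The Ccl5 values under LPS rest on how the decimal marks were restored. They were read as whole counts with a probability between 0.907 and 1, and read with 3 decimals they would be a thousandth as large. When the gene's own share of whole values was not used, an alternative added after seeing the data, 5 Ccl5 values fell below the minimum probability of 0.9, with a lowest of 0.465, and 2 were read otherwise. Ccl5 could then be tested between LPS and vehicle only in miR-146a cells, at 6.91 (adjusted p = 0.0293 in limma). When the level was taken over all 32 libraries alone, 12 Ccl5 values fell below 0.9, with a lowest of 0.387, 7 were read otherwise, and Ccl5 could be tested in no transfection. The other 9 members were read alike with a probability of at least 0.931 under both alternatives.

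Ccl9, a chemokine of mouse myeloid cells that signals through Ccr1, was the second member with groups apart in all 4 transfections. In scramble cells it was at 5.66, 5.21, 8.74 and 7.32 CPM under vehicle and at 15.1, 18.3, 19.9 and 19.2 CPM under LPS. In miR-7a cells it was at 5.60, 9.76, 1.43 and 6.06 CPM under vehicle and at 16.7, 12.8, 11.9 and 12.9 CPM under LPS. In each pair of groups the lowest LPS library exceeded the highest vehicle library. In miR-29a cells it was at 5.69, 6.48, 9.46 and 11.6 CPM under vehicle and at 29.7, 39.7, 30.2 and 56.1 CPM under LPS. In miR-146a cells it was at 0.718, 1.98, 2.59 and 2.13 CPM under vehicle and at 11.7, 9.06, 9.19 and 7.03 CPM under LPS. The highest levels were those of miR-29a under LPS and the lowest those of miR-146a under vehicle. The log2 fold change of Ccl9 was 1.47 ± 0.21 in scramble (adjusted p = 0.000789 in limma), 2.07 ± 0.30 in miR-29a (0.000531) and 2.15 ± 0.40 in miR-146a cells (0.00694). In miR-7a cells it was 1.37 ± 0.41 and did not pass, with an adjusted p of 0.0665 in limma, and against the 1 vehicle library that did not stand apart it was 1.23.

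Among the monocyte attractants Ccl2, Ccl7 and Ccl12, which share the receptor Ccr2, only the Ccl2 of miR-29a cells passed the test between LPS and vehicle. In those cells Ccl2, the main monocyte attractant of inflamed tissue, was at 5.39, 3.05, 6.31 and 3.08 CPM under vehicle and at 29.3, 13.7, 25.8 and 11.7 CPM under LPS. The groups did not overlap, and the log2 fold change was 2.11 ± 0.43 with an adjusted p of 0.00399 in limma. In scramble cells Ccl2 was at 3.58, 0.695, 2.11 and 2.62 CPM under vehicle and at 5.87, 2.37, 8.07 and 1.96 CPM under LPS. In miR-7a cells it was at 8.83, 0.976, 10.7 and 3.03 CPM under vehicle and at 31.2, 15.0, 26.9 and 8.64 CPM under LPS. These groups overlapped, with log2 fold changes of 0.60 ± 0.60 in scramble (adjusted p = 0.518 in limma) and 1.49 ± 0.75 in miR-7a cells (0.296). Against the 1 miR-7a vehicle library that did not stand apart the Ccl2 estimate was 1.01. In miR-146a cells Ccl2 was at 4.31, 2.52, 2.34 and 0.819 CPM under vehicle and at 3.94, 0.755, 2.30 and 1.28 CPM under LPS, a log2 fold change of -0.06 ± 0.62 (0.975).

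Ccl7 and Ccl12 had too few counts for the test between LPS and vehicle in any transfection. Ccl12 counts under vehicle ranged from 0 to 4 over the 16 libraries. In miR-7a cells Ccl12 was at 0.431, 0, 0 and 0 CPM under vehicle and at 2.16, 1.15, 2.19 and 1.39 CPM under LPS. In miR-29a cells it was at 0.599, 0, 0.394 and 0.475 CPM under vehicle and at 1.89, 1.12, 2.92 and 3.36 CPM under LPS. The LPS libraries lay above the vehicle libraries in these 2 transfections and overlapped them in scramble and miR-146a cells, where Ccl12 under LPS was at most 0.666 and 0.460 CPM. Ccl7 overlapped between LPS and vehicle in all 4 transfections and stayed at or below 3.12 CPM.

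Cxcl10 attracts activated T cells through Cxcr3 and is a classical interferon-induced gene. In miR-29a cells it was at 0, 0, 0 and 0.237 CPM under vehicle and at 3.97, 2.16, 5.51 and 1.90 CPM under LPS. The groups did not overlap, and the log2 fold change was 4.24 ± 0.58 with an adjusted p of 0.000389 in limma. Cxcl10 was tested there only through its LPS libraries, so a positive estimate was set by its entry and nothing is read from the test. The vehicle side rested on 2 counts over its 4 libraries, and the ratio of summed counts per effective total was 35.0, with an exact 95% interval from 9.51 to 292 that covers counting error only. In miR-7a cells Cxcl10 was at 0, 0, 0.715 and 0 CPM under vehicle and at 1.86, 1.5, 3.02 and 1.11 CPM under LPS. In miR-146a cells it was at 0, 0, 0.123 and 0 CPM under vehicle and at 0.597, 0.252, 0.345 and 0.959 CPM under LPS. Both pairs of groups stood apart, but Cxcl10 had too few counts there for the test. In scramble cells it was at 0, 0, 0.904 and 0 CPM under vehicle and at 0, 0, 1.25 and 0.490 CPM under LPS, and the groups overlapped.

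Ccl3 and Ccl4, which attract monocytes and T cells, did not pass the test between LPS and vehicle in any transfection. In scramble cells Ccl3 was at 35.6, 56.6, 354 and 276 CPM under vehicle and at 67.1, 30.9, 272 and 221 CPM under LPS. Its log2 fold change was -0.14 ± 0.80, with a 95% interval from -1.88 to 1.60. The interval of Ccl4 in scramble cells ran from -1.16 to 0.55 around -0.31. In the miR-7a, the miR-29a and the miR-146a cells the Ccl3 estimates were 1.07, 0.25 and -0.24 and those of Ccl4 were 0.61, 0.32 and 0.23. Against the 1 miR-7a vehicle library that did not stand apart they were 1.88 for Ccl3 and 1.01 for Ccl4. With the replicate number as a block, in the transfections where it paired the libraries, the Ccl3 interval ran from -0.74 to 0.36 in scramble and from -0.05 to 0.85 in miR-29a cells. That of Ccl4 ran from -1.06 to 0.09 and from -0.30 to 1.02. All of these intervals include 0, and they leave changes within their bounds possible.

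Cxcl16 is a transmembrane chemokine that also acts as a scavenger receptor, with Cxcr6 as its receptor. In scramble cells it was at 0.943, 2.08, 0.301 and 1.38 CPM under vehicle and at 3.77, 1.81, 3.99 and 1.96 CPM under LPS, a log2 fold change of 1.17 ± 0.50 (adjusted p = 0.124 in limma). In miR-146a cells it was at 1.4, 1.08, 0.617 and 0.983 CPM under vehicle and at 2.87, 1.76, 3.33 and 5.43 CPM under LPS. Those groups did not overlap, yet the log2 fold change of 1.51 ± 0.55 did not pass (adjusted p = 0.158 in limma). The estimate in miR-29a cells was 0.98 ± 0.43 (0.111). In miR-7a cells Cxcl16 had too few counts for the test. Zmynd15, which shares exon bases with Cxcl16, ranged over the groups from a mean of 0.41 to 3.09 CPM, with the highest mean in miR-146a under LPS. Its part in the Cxcl16 values was not tested. Cxcl2, a neutrophil attractant that binds Cxcr2, was at 0 to 5 counts in all 32 libraries, so no fold change is given.

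**Figure D2:**
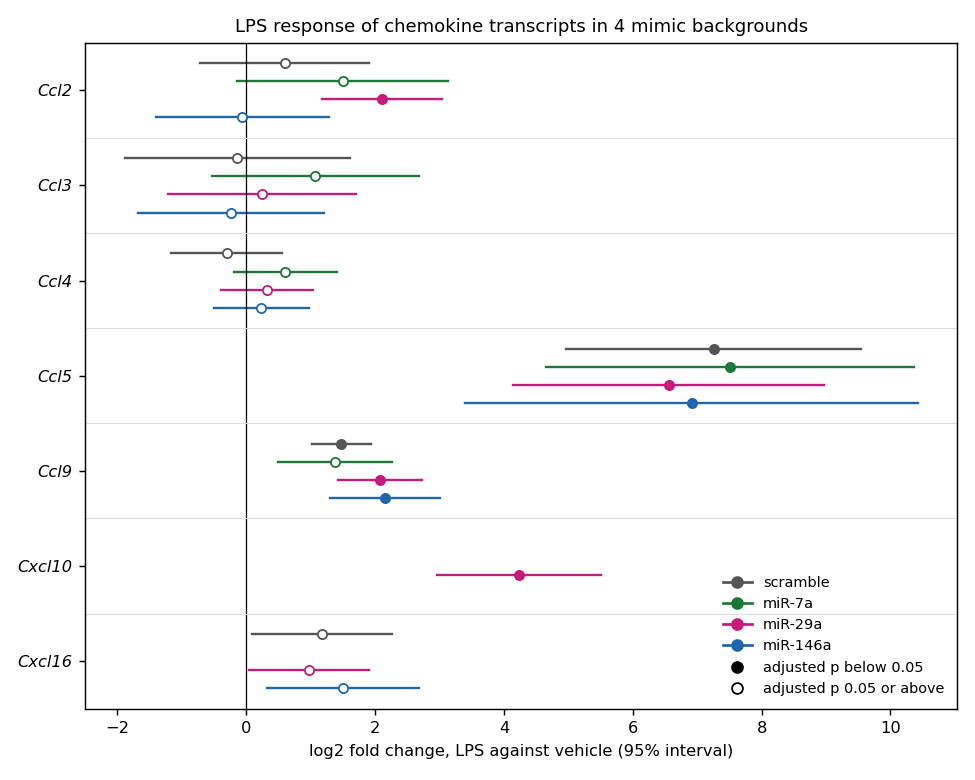
Log2 fold change of LPS against vehicle for the members tested, with 95% intervals, coloured by transfection and filled where the limma adjusted p was below 0.05. Ccl5 lies between 6.56 and 7.51 in the 4 transfections, Ccl9 between 1.37 and 2.15, and the intervals of Ccl3 and Ccl4 include 0.

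The second question was how each mimic differed from scramble under LPS. The 3 comparisons share the same 4 scramble libraries, so their values are given side by side and are not independent of each other. With miR-7a, 2 of the 9 members tested were called, Ccl2 and Ccl12, both higher, where 2.51% of all 12558 genes tested were called. With miR-29a, 4 of 9 were called, Ccl2, Ccl9, Ccl12 and Cxcl10, all higher, against 4.42%. With miR-146a, 1 of 6 was called, Ccl9, which was lower, against 2.25%. Ccl7, Ccl12 and Cxcl10 were tested for miR-7a and miR-29a, where they passed the filter on low counts through the mimic libraries, with 0 to 15 counts in scramble, and had too few counts to be tested for miR-146a. A member that enters in this way had to be higher with the mimic, so the counts of calls are also given without these 3. Over the 6 members tested for all 3 mimics (Ccl2, Ccl3, Ccl4, Ccl5, Ccl9 and Cxcl16), 1, 2 and 1 were called.

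Libraries with the same replicate number deviated together in these 3 comparisons, so the fit with the replicate number as a block is given beside them. With the block, 5 of 9 members were called for miR-7a, all higher, against 9.1% of all genes. For miR-29a 5 of 9 were called, all higher, against 10.4%. For miR-146a 3 of 6 were called, all lower, against 11% of all genes. Over the 6 members tested for all 3 mimics, 3, 2 and 3 were called with the block.

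Under LPS, Ccl2 was higher with both miR-7a and miR-29a than with scramble. Ccl12, and with the block Cxcl10, passed the test with both mimics as well, but these 2 were tested only through the mimic libraries where they are high. The Ccl2 values under LPS given above, 8.64 to 31.2 CPM with miR-7a and 11.7 to 29.3 CPM with miR-29a, all lay above the highest scramble library at 8.07 CPM. Against scramble the log2 fold change of Ccl2 was 2.39 ± 0.52 for miR-7a (adjusted p = 0.0394 in limma) and 2.47 ± 0.46 for miR-29a (0.0145). With the block it was 2.11 ± 0.20 for miR-7a (adjusted p = 5.54e-05 in limma) and 2.15 ± 0.21 for miR-29a (4.03e-05). For miR-146a the Ccl2 estimate was -0.79 ± 0.65 (adjusted p = 0.572 in limma), and with the block it was lower at -1.29 ± 0.35 (0.0436). Without the block, leaving out any 1 library other than miR-7a replicate 4 or scramble replicate 3 ended the Ccl2 call for miR-7a, with adjusted p up to 0.154. For miR-29a only leaving out scramble replicate 4 ended it (log2 fold change 2.03, adjusted p = 0.0812).

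Ccl12, a further mouse ligand of Ccr2, was at 0, 0.237, 0.666 and 0.653 CPM in scramble cells under LPS. All 4 libraries of miR-7a and of miR-29a, given above, exceeded these, the lowest being 1.15 and 1.12 CPM. Its log2 fold change was 1.96 ± 0.44 for miR-7a (adjusted p = 0.0440 in limma) and 2.29 ± 0.54 for miR-29a (0.0377). The counts were low, between 0 and 44 per library. Leaving out any 1 of the 8 libraries ended the Ccl12 call for miR-7a (adjusted p 0.0562 to 0.138), as did edgeR (0.0601), limma-trend (0.0734) and the test with no filter on low counts (0.0718). Any 1 of 7 libraries, all but miR-29a replicate 2, ended it for miR-29a, with adjusted p up to 0.114. With the block the estimates were 1.85 ± 0.46 (0.0248) and 2.35 ± 0.44 (0.00491).

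Ccl7, which shares Ccr2 and also binds Ccr1 and Ccr3, was at 0, 0.158, 1.16 and 0.218 CPM in scramble cells under LPS. It was at 1.55, 0.575, 1.46 and 1.21 CPM with miR-7a and at 2.46, 0.896, 3.12 and 0.584 CPM with miR-29a. Both mimic groups overlapped scramble through scramble replicate 3. The log2 fold change of Ccl7 was 1.84 ± 0.57 for miR-7a (adjusted p = 0.115 in limma) and 2.23 ± 0.71 for miR-29a (0.0993), and with the block miR-29a passed at 1.95 ± 0.49 (0.0232).

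Cxcl10 under LPS was at 0, 0, 1.25 and 0.490 CPM in scramble cells, below all 4 libraries of miR-29a at 1.90 to 5.51 CPM. The miR-7a libraries, at 1.11 to 3.02 CPM, overlapped scramble through its replicate 3. Its log2 fold change was 3.54 ± 0.81 for miR-29a (adjusted p = 0.0326 in limma) and 2.70 ± 0.78 for miR-7a (0.0931). With the block it was 3.06 ± 0.56 for miR-29a (0.00419), and for miR-7a 2.16 ± 0.60 passed (0.0405). Leaving out miR-29a replicate 1 or 3 or scramble replicate 1, 2 or 4 ended the miR-29a call, with adjusted p of 0.0735, 0.0906, 0.086, 0.0708 and 0.0909.

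Ccl9 moved in opposite directions with miR-29a and miR-146a under LPS. Against scramble at 15.1 to 19.9 CPM, all 4 libraries of miR-29a were higher at 29.7 to 56.1 CPM and all 4 of miR-146a were lower at 7.03 to 11.7 CPM. On the log2 scale the fold change was 1.02 ± 0.20 for miR-29a (adjusted p = 0.0179 in limma) and -0.97 ± 0.18 for miR-146a (0.0227). For miR-7a it was -0.47 ± 0.15 (0.134). With the block the Ccl9 estimates were 1.11 ± 0.20 for miR-29a (0.00302) and -0.99 ± 0.21 for miR-146a (0.0171). The 3′ UTR of Ccl9 holds the matches to the miR-7a and miR-146a seeds printed above and none to that of miR-29a. Leaving out scramble replicate 1, 3 or 4 ended the miR-29a call (adjusted p 0.0515, 0.0605 and 0.0812). For miR-146a, leaving out its replicate 2 or 3 or scramble replicate 3 or 4 did so (adjusted p 0.0512, 0.1002, 0.0582 and 0.0903).

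Ccl5 and Ccl3 passed only with the block. Within each replicate number Ccl5 under LPS was higher with miR-7a than with scramble and lower with miR-146a, in 4 of 4 pairs each, although the groups overlapped. The log2 fold change of Ccl5 was 0.94 ± 0.60 for miR-7a (adjusted p = 0.461 in limma) and -0.88 ± 0.60 for miR-146a (0.490). With the block it was 0.95 ± 0.11 (0.000263) and -0.77 ± 0.10 (0.00233). For miR-29a the Ccl5 estimate was -0.15 ± 0.61, with a 95% interval from -1.49 to 1.2. Ccl3 under LPS was at 99.0, 41.5, 309 and 302 CPM with miR-7a, and the blocked log2 fold change was 0.39 ± 0.11 (0.0349). Ccl4 was called for no mimic, with estimates of 0.25, 0.38 and 0.06, and neither was Cxcl16, with estimates of -0.41 for miR-7a, 0.46 for miR-29a and 0.24 for miR-146a.

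**Figure D3:**
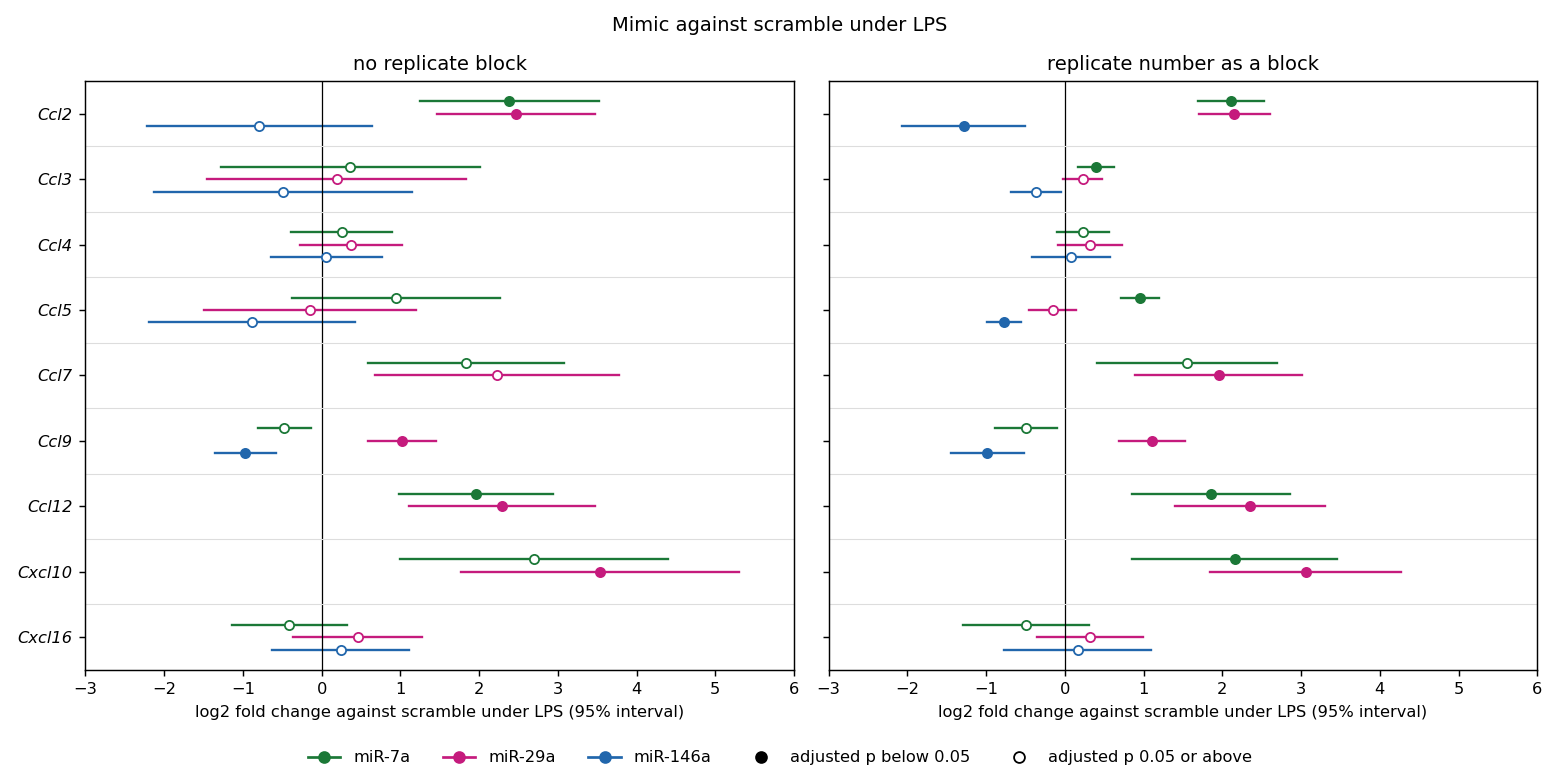
Log2 fold change of each mimic against scramble under LPS with 95% intervals, without (left) and with (right) the replicate number as a block, filled where the limma adjusted p was below 0.05. Ccl2 lies at 2.39 and 2.47 for miR-7a and miR-29a on the left, Ccl9 lies above 0 for miR-29a and below 0 for miR-146a, and the intervals of Ccl5 are narrower on the right.

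The 4 libraries of a group were not alike for Ccl3, Ccl4 and Ccl5. Replicates 3 and 4 of Ccl3 lay above replicates 1 and 2 in all 8 groups, with mean CPM 4.27 to 6.82 times higher. Ccl5 showed the same split in all 8 groups, with ratios of 3.77 to 4.06 in the 4 LPS groups. For Ccl4 replicates 3 and 4 lay above 1 and 2 in 6 of 8 groups. The labels say nothing of what a replicate number stands for, and no date or batch is among them. What replicates 3 and 4 share was not tested.

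**Figure D4:**
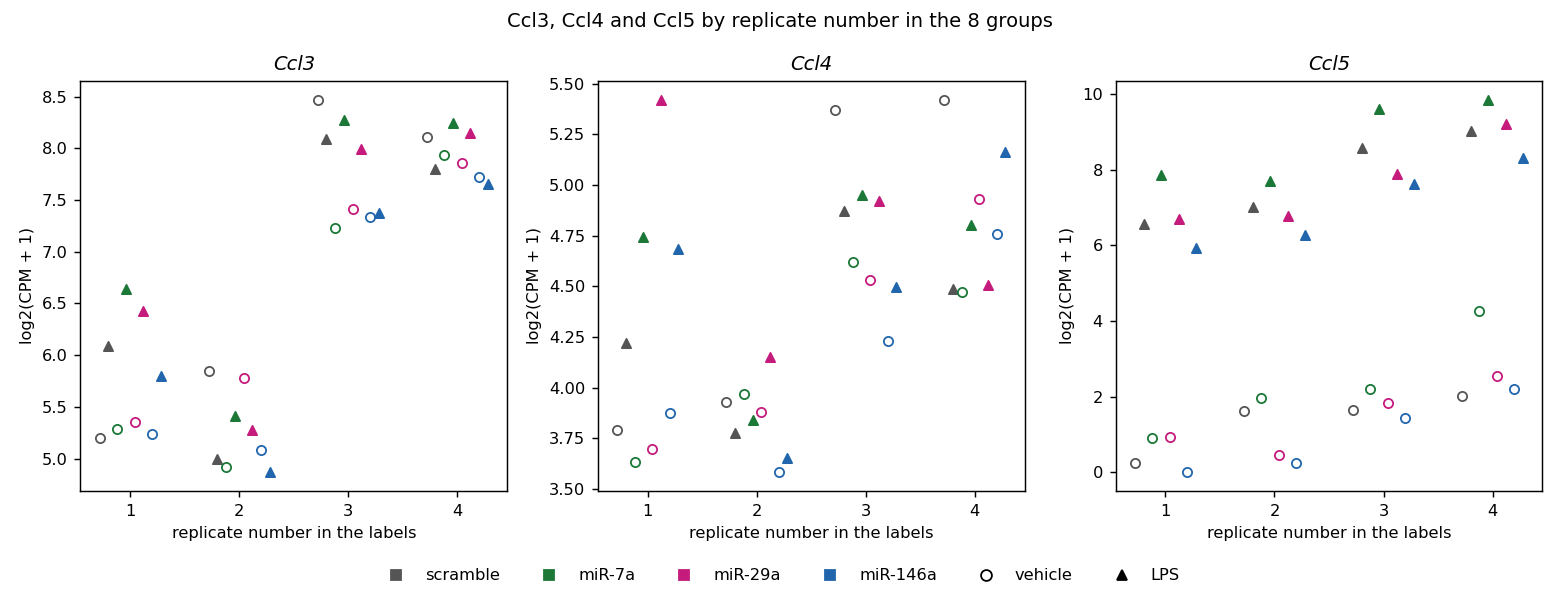
Ccl3, Ccl4 and Ccl5 as log2(CPM + 1) by replicate number, with open circles for vehicle, filled triangles for LPS and colours for the transfection; points at one number are spread sideways for visibility. Ccl3 of replicates 3 and 4 lies above that of replicates 1 and 2 in all 8 groups, and the vertical scales do not start at 0.

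Under vehicle, few chemokines had enough counts to test a mimic against scramble, and the 3 comparisons again share 4 scramble libraries. With miR-7a 0 of the 3 tested members were called in limma, against 0.0466% of all genes, and 0 had an unadjusted p below 0.05. With miR-29a 0 of 4 were called, against 0.00887%, and 0 had an unadjusted p below 0.05. With the replicate number as a block, which paired the libraries of this comparison, 0 of 4 were called as well, against 0.603%, and 2 had an unadjusted p below 0.05. These were Ccl2, higher in 4 of 4 pairs at 0.85 ± 0.32 (adjusted p = 0.183 in limma), and Ccl4, lower in 4 of 4 pairs at -0.47 ± 0.20 (0.217). Neither edgeR nor DESeq2 called a member with miR-7a or miR-29a, which is 0 by each tool. With miR-146a 1 of 4 was called, Ccl9, which was lower, against 1.88%. Ccl9 was at 0.718, 1.98, 2.59 and 2.13 CPM with miR-146a, below all 4 scramble libraries at 5.21 to 8.74 CPM, and its log2 fold change was -1.61 ± 0.36 (adjusted p = 0.0470 in limma). Leaving out any 1 library other than scramble replicate 1 ended this call, with adjusted p up to 0.141. For Ccl2 with miR-29a the estimate was 0.92 ± 0.44 (adjusted p = 0.50 in limma), and for miR-146a it was -0.16 ± 0.56. With miR-7a Ccl2 had too few counts for the test. It was higher than scramble there in 4 of 4 same-numbered pairs, although replicate numbers did not pair these libraries. Ccl3 and Ccl4 had estimates between -0.74 and -0.25 for the 3 mimics without the block, with intervals that included 0. The 3 miR-7a libraries that stood apart are part of the miR-7a comparison, and the 1 library left without them allows no reading of a count of calls.

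The third question was whether the LPS response of a chemokine differed between a mimic and scramble, tested as an interaction. For miR-7a 0 of 6 members were called in limma, against 0.00859% of all genes, and 0 had an unadjusted p below 0.05. For miR-29a 0 of 7 were called, against 0.017%, and 1, Cxcl10, had an unadjusted p below 0.05. For miR-146a 0 of 6 were called, against 0% of all genes, and 0 had an unadjusted p below 0.05. By edgeR and by DESeq2 the member counts were also 0 in all 3. The Cxcl10 interaction with miR-29a was 3.61 ± 1.41 on the log2 scale, with a 95% interval from 0.64 to 6.58 and an adjusted p of 0.689 in limma. Cxcl10 passed the filter on low counts there through the LPS libraries of miR-29a, where it is high, so a positive estimate was set by its entry and nothing is read from it. For Ccl2 the interaction was 1.01 ± 1.06 with miR-7a (-1.22 to 3.24). With miR-29a it was 1.55 ± 0.81 (-0.14 to 3.25). For Ccl9 it was -0.06 with miR-7a (-0.95 to 0.84), 0.61 with miR-29a (-0.18 to 1.40) and 0.67 with miR-146a (-0.14 to 1.48). The Ccl5 intervals were wider, from -3.83 to 4.14 for miR-7a, so these tests do not show that the responses were alike. The miR-7a interactions rest on the 3 vehicle libraries that stood apart.

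Promoter sequence was at hand for 5 of the 10 members (RefSeq, GRCm38.p6, 250 bases before to 50 after the start). It was searched on both strands for the NF-kB site kB, an ISRE-type site of interferon-driven promoters and the AP-1 site TGANTCA, which 4.51%, 3.44% and 7.81% of 32851 promoters of the same length hold. Cxcl10 held matches to all 3, with 2 kB matches centred 154 and 98 bases before the start, 1 ISRE-type match at 208 and 1 AP-1 match at 71, none overlapping another. Ccl9 held 1 kB match at 30 and 1 AP-1 match at 50, and Cxcl2 held 2 overlapping kB matches at 92 and 91. Ccl3 and Ccl12 held none. Ccl2, Ccl4, Ccl5, Ccl7 and Cxcl16 have no entry. The promoters of Cxcl10, Ccl9 and Cxcl2 are printed, with the matches in capitals, because they are those in which matches were found.
Cxcl10, chr5:92348840-92349139, minus strand: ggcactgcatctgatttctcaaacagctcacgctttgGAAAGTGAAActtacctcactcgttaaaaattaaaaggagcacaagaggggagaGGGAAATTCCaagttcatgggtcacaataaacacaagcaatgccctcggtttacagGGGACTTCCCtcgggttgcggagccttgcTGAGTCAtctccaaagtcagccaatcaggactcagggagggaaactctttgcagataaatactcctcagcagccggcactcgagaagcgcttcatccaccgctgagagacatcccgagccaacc
Ccl9, chr11:83578587-83578886, minus strand: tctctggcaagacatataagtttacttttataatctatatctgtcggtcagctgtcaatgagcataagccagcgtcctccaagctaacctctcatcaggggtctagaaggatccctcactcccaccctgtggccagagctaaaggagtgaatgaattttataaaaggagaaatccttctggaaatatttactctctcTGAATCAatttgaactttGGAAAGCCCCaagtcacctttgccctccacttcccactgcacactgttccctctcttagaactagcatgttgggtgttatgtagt
Cxcl2, chr5:90903649-90903948, plus strand: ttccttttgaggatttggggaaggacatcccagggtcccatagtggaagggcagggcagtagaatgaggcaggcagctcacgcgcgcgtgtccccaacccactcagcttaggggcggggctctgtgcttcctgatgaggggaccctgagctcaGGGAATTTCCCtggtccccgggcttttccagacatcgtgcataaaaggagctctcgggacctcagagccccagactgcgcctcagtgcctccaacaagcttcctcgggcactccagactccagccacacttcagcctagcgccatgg

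The AU-rich run TATTTAT, which decay factors such as tristetraprolin bind, was in the 3′ UTR of 4 members, against 28.7% of genes with a 3′ UTR. Cxcl2 held 7 copies in 1 transcript, and Ccl3, Ccl4 and Ccl12 held 1 each. Ccl2, Ccl5, Ccl7, Ccl9, Cxcl10 and Cxcl16 held none.

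Across the 32 libraries, the genes most like each chemokine were listed by Pearson's r of log2(CPM + 1) over 31560 genes, as a description, since the libraries share groups and replicate numbers. Ccl5 was most like Slamf7 (r = 0.95) and Oasl2 (0.95), and Ccl9 most like Slc43a3 (0.86) and Oasl1 (0.86). Cxcl10 was most like the interferon-induced GTPases Gbp5 (0.89) and Iigp1 (0.87), and Ccl12 most like AA467197 (0.87) and Iigp1 (0.86). Ccl2 was most like Iigp1 (0.82) and Ppa1 (0.82). Among the members, Cxcl10 and Ccl12 were most alike (0.84), ahead of Ccl3 and Ccl4 (0.81) and of Ccl2 and Ccl12 (0.79). Ccl3 was most like Ppp6c (0.94) and Timm9 (0.93), Ccl4 most like Ccl3 and Krtcap2 (0.80), Ccl7 most like Glipr2 (0.75) and Gm4951 (0.75), and Cxcl16 most like Reps1 (0.81) and Pou2f2 (0.80). Cxcl2 was most like Gm3830 (0.74) and Mir8097 (0.66), both of them, like Cxcl2, at counts near 0.

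The receptors of these ligands and the factors that act on their genes were described by lists made from their names. Of 23 chemokine receptor genes, 6 were tested between LPS and vehicle in scramble cells, with 1 higher and 2 lower, where 18.1% of all genes were called. The higher one was the atypical receptor Ccrl2, with a log2 fold change of 1.57 ± 0.18 (adjusted p = 0.000216 in limma). Cxcr2, the receptor of Cxcl2, fell by 2.33 on the log2 scale (adjusted p = 0.00156 in limma), and Ccr1, a receptor of Ccl5 and Ccl9, fell by 1.34 (0.0444). Of 20 transcription factors and inhibitors, 19 were tested there, with 4 higher and 3 lower. Irf7, which drives interferon genes, rose most at 3.86 ± 0.31 (adjusted p = 2.54e-05 in limma), and Irf9, Stat2 and the NF-kB inhibitor Tnfaip3 rose by 1.45, 0.84 and 1.13. Irf5, Irf3 and Spi1 fell by 0.68, 0.84 and 0.75, and like Ccr1 they are named after their values were seen, to complete the counts. Of 14 receptor signalling genes 1 was higher, Pik3cg at 0.50, of 7 regulators of mRNA decay 1 was lower, Zfp36l1 at -0.57, and of 7 genes that process chemokines 2 were tested, the sheddases Adam17 and Adam10, at 0.21 and -0.12 with adjusted p of 0.384 and 0.664 in limma. All these counts stand against the same 18.1% of all genes.

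Between mimics and scramble under LPS, limma called 2 of 20 factors lower and 0 higher with miR-7a, where 2.51% of all genes were called. With miR-29a 2 of 20 were higher and 0 lower, against 4.42%, and with miR-146a 0 of 20 were called, against 2.25%, with 4 at an unadjusted p below 0.05. Lower with miR-7a were Tnfaip3 at -0.79 (adjusted p = 0.0499 in limma) and Cebpb at -0.85 (0.0211). Among those higher with miR-29a was Stat2, which carries the interferon signal to the nucleus, at 1.37 ± 0.16 (0.00208). Of the receptor genes tested, 1 of 7 was higher with miR-7a, 1 of 6 was lower with miR-29a and 0 of 6 were called with miR-146a, with 1 at an unadjusted p below 0.05. The higher one was Cxcr3, the receptor of Cxcl10, at 2.56 ± 0.35 (adjusted p = 0.00565 in limma), which had at most 0.499 CPM in scramble cells under LPS and so was tested through the miR-7a libraries. The lower one was Cxcr4, which binds Cxcl12, and it fell by 0.79 on the log2 scale (adjusted p = 0.0317). Of 14 signalling genes 1 was lower with miR-29a, Arrb1, an arrestin that switches off chemokine receptors, which fell by 1.00 (adjusted p = 0.0168). With miR-7a and miR-146a 0 of 14 were called in limma, with 2 and 1 at an unadjusted p below 0.05. Cebpb and Cxcr3 are named after their values were seen. The microglia markers moved as well. Between LPS and vehicle in scramble cells 1 was higher and 5 lower of 11 tested, against 18.1% of all genes, and with miR-29a under LPS 3 of 11 were lower, against 4.42%, Fcgr3, Csf1r and Tyrobp, at -0.91, -0.70 and -0.57. Their summed level was 3794 to 4726 CPM in scramble and 2921 to 3763 CPM in miR-29a cells under LPS, and its part in the chemokine results was not tested. The oligodendrocyte marker Mbp was lower under LPS in scramble cells at -0.91, and its list summed to 4.58 to 6.32 CPM there.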

How the data were processed

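RNA sequencing of 32 BV-2 libraries gave 1 table of 45706 genes. The authors deposited estimated counts per gene, made with the nf-core rnaseq workflow on GRCm38. The deposited values had lost their decimal marks, so 28.2% of the 590874 values above 0 were read as carrying lost decimals, 95.9% of these with 3. Each value was restored by its probability given the gene's level in the group, the library total and the share of whole values. Of the values above 0, 1.94% had a probability below 0.9. A gene with such a value among the compared libraries was left out of that comparison. Genes were filtered with filterByExpr and scaled by TMM, after the study's methods. They were tested with limma 3.58.1 in R 4.3.3 with edgeR 4.0.16, using the compared groups only. The methods name a limma/edgeR model after a log transformation, and voom weights were the choice made here. The study also asked for an absolute log2 fold change above 0.3, which as an alternative changed no member's call. P-values were adjusted by Benjamini-Hochberg over all genes tested, and adjusted p below 0.05 was called. DESeq2 1.42.0 and edgeR were alternatives, and tables and figures were made in Python 3.11.15. On data simulated for miR-7a against scramble under LPS (12722 genes), limma recovered 23.71% of genes changed by 1 and 97.56% of those changed by 2 on the log2 scale, with 3.74% of calls false. The simulation used 1 dispersion for all genes and no effect of the replicate number. Its changed genes were at 5 CPM or more in scramble cells under LPS. These rates therefore do not carry over to members below that level or to members that differ by replicate number. Replicate numbers come from the labels. They were taken to pair libraries where every same-numbered pair of deviations from the group means had a correlation over 0.1. This held for LPS against vehicle in scramble and miR-29a cells, for the 3 mimics under LPS (lowest r 0.166) and for miR-29a under vehicle. The members and gene lists were chosen with earlier results of these data known. Genes of the lists were named where their mean reached 5 CPM, with at most 5 a list, and the 2 genes most like each member were named. Some genes of the lists are not reported here. Count intervals cover counting error only.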

Additional observations from a re-analysis of the deposited data

Results flagged for a closer look

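Libraries far from the rest of their group of 4 were looked for gene by gene with Dixon's ratio, the share of the group's range that lies between the outermost library and its neighbour, at its 95% critical value. Among the 80 groups of values looked at, 11 met this. Chance meets it in about 1 of 20 groups of continuous values, a rate that does not apply to counts near 0. Ccl5 in replicate 4 of miR-7a under vehicle was at 18.2 CPM, while the other 3 libraries were at 0.861 to 3.58 CPM. Ccl7 in replicate 4 of miR-146a under LPS was at 0 CPM, while the others were at 0.115 to 0.126 CPM, which is 1 count each. In the remaining 9 cases 1 library held counts and the other 3 held 0, which sets the ratio to 1 whatever the count. For Cxcl10 under vehicle these were 0.904 CPM in scramble replicate 3, 0.715 CPM in miR-7a replicate 3, 0.237 CPM in miR-29a replicate 4 and 0.123 CPM in miR-146a replicate 3. For Cxcl2 they were 0.109 CPM in scramble replicate 4 under LPS, 0.215 CPM in miR-7a replicate 1 under vehicle and 0.197 CPM in miR-29a replicate 3 under vehicle. Replicate 1 of miR-7a under vehicle was also the one library of its group with Ccl12, at 0.431 CPM, and with Cxcl16, at 1.94 CPM. The other 3 libraries of that group had effective totals that make 1 count worth up to 1.52 CPM.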

How the results depend on the processing

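Over the alternatives run, no log2 fold change of a called member changed sign (0 of 350 values). Fits in which a member could not be tested are not among these values. Members that passed the filter through the group where they are high had their sign set by it. Counts of members called, as tested in the report, were 2 in scramble, 1 in miR-7a, 4 in miR-29a and 2 in miR-146a cells for LPS against vehicle, 2 for miR-7a, 4 for miR-29a and 1 for miR-146a under LPS, and 1 for miR-146a under vehicle. With the values as deposited, decimal marks not restored, these fell to 0, 0, 1 and 0, to 0, 0 and 0, and to 0. With restoration from the level over all 32 libraries, LPS against vehicle gave 1 in scramble, 0 in miR-7a and 1 in miR-146a cells, and miR-146a under vehicle gave 0. Restoration without the gene's own share of whole values, added after seeing the data, gave 1 in scramble and 0 in miR-7a cells. The calls lost under both were those of Ccl5, which was not tested where its values fell below the minimum probability, apart from Ccl9 for miR-146a under vehicle. For LPS against vehicle in miR-7a cells, DESeq2 called 3, no filter on low counts 4 (of 7829 genes called in all), all 8 groups in 1 fit 2, a minimum probability of 0.99 gave 0, and leaving out VEH_miR-7a replicates 2, 3 and 4, added after seeing the data, gave 0 with 1 vehicle library left. For miR-7a under LPS, edgeR, limma-trend and no filter each called 1, and no filter called 0 for miR-146a under LPS and under vehicle. The replicate block gave 5 for miR-7a and 3 for miR-146a under LPS, where numbers paired the libraries. In LPS against vehicle in miR-7a cells, where they did not, it gave 4, Ccl2, Ccl3, Ccl5 and Ccl9, where 14.5% of all genes were called. Ccl3 was at 0.86 there (adjusted p = 0.00687 in limma). The block moved no other count by over 1.5 times. Leaving out 1 library gave 2 to 2, 1 to 1, 4 to 5 and 1 to 2 members for LPS against vehicle in scramble, miR-7a, miR-29a and miR-146a cells, 0 to 1, 0 to 4 and 0 to 1 for the 3 mimics under LPS, 0 to 1 for miR-146a under vehicle, and 0 to 0 for the other comparisons. The cause of these changes was not tested. Depth limits Ccl7, Ccl12, Cxcl2, Cxcl10 and Cxcl16, whose counts under vehicle were at most 15.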

Other observations

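Of 26 other chemokine ligands, 5 were tested between LPS and vehicle in each transfection. In limma 1 was higher and 2 lower in scramble cells, where 18.1% of all genes were called, 1 and 1 in miR-7a cells (6.46%), 2 and 2 in miR-29a cells (26.4%) and 0 and 1 in miR-146a cells (4.59%). Pf4, a platelet-type CXC chemokine, was lower under LPS in all 4 transfections, from a mean of 149 CPM to 57.5 CPM in scramble cells, with log2 fold changes between -1.27 and -1.18 and each past the limma threshold. Ccl24, an eosinophil attractant, fell by 2.66 on the log2 scale in scramble cells (adjusted p = 0.0013 in limma) and by 3.19 in miR-29a cells (0.000147). Under LPS it was the 1 of 6 ligands tested that was higher with miR-7a than with scramble, where 2.51% of all genes were called. The log2 fold change of Ccl24 was 1.89 ± 0.37 there (0.0263). Cxcl14 was higher under LPS in scramble, miR-7a and miR-29a cells, by 0.89, 1.72 and 1.18, and Ccl25 in miR-29a cells, by 1.00. Ccl6 was the 1 of 5 ligands tested that was higher with miR-146a than with scramble under vehicle, where 1.88% of all genes were called. It was at 70.8 ± 7.5 CPM against 37.5 ± 8.5 CPM (n = 4, SD), which gave a log2 fold change of 0.97 ± 0.18 (0.0312 in limma).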
